A study of Mus musculus with 7 samples.

Results

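The cofilin switch of the kidney was described here through the genes for its enzymes and substrates, in whole kidneys of male mice lacking a pair of heparan sulfate 3-O-sulfotransferases. The set names 10 genes, namely the slingshot phosphatases Ssh1, Ssh2 and Ssh3, the phosphatase Pdxp, the kinases Limk1, Limk2 and Tesk1, and the actin-severing proteins Cfl1, Cfl2 and Dstn. It was chosen by a measured value, because Ssh2 had one of the smallest p-values between genotypes (rank 3 of 15394 genes tested), and the others were added as its family, its opposing kinases and its substrates. Members were found by symbol in the deposited expression table and by Ensembl identifier in the counts, which gave 9 of the 10 among 48709 Ensembl genes. Pdxp is not analysed here. The wild-type (WT) group has 3 libraries, numbered 1, 2 and 4, and the double knockout (DKO) group has 4, numbered 1 to 4, from animals labelled as lacking both Hs3st3a1 and Hs3st3b1. Each library carries its own animal number in the labels. Strain and age are not given in the labels, and no promoter or Cre is named there.

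Cofilins bind actin filaments, sever them and speed the return of monomers, and so set how fast an actin network turns over. A phosphate on the serine just after the start of the protein switches them off. LIM kinases add that phosphate downstream of small GTPases through ROCK and PAK kinases. TESK kinases add it as well, and slingshot phosphatases remove it. In the kidney this switch is best known from podocyte foot processes and from tubular cells after loss of blood flow. RNA levels do not show the phosphate itself.

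The coding start of the substrates is shown because the serine codon is what both classes of enzyme act on. These are coding bases 1 to 30 in GENCODE M21 transcripts, 5′ to 3′, with codon 3, the serine, in capitals.
Cfl1: atggccTCTggtgtggctgtctctgatggt
Cfl2: atggcaTCTggagttacagtgaatgatgaa
Dstn: atggccTCAggagttcaggttgcggatgaa
On GRCm38 the serine codon lies at 5492500 to 5492502 of chromosome 19 (plus strand) in Cfl1, 54861828 to 54861830 of chromosome 12 (minus) in Cfl2 and 143938388 to 143938390 of chromosome 2 (plus) in Dstn. All 3 genes encode serine there. Cfl1 and Cfl2 have 166 codons each and share 81.3% of aligned residues, and Dstn has 165 codons and shares 70.9% with Cfl1 and 69.1% with Cfl2.

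The slingshots share a cysteine phosphatase signature, shown because its cysteine carries out the reaction in all 3 genes. These are 36-base coding stretches around it, 5′ to 3′, with the cysteine codon in capitals.
Ssh1: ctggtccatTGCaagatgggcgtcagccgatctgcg
Ssh2: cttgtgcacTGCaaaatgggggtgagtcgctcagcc
Ssh3: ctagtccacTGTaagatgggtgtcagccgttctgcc
The cysteine is codon 393 of 1042 in Ssh1 (chromosome 5, 113950556 to 113950558, minus strand), codon 392 of 1423 in Ssh2 (chromosome 11, 77441886 to 77441888, plus) and codon 410 of 649 in Ssh3 (chromosome 19, 4264078 to 4264080, minus). Over whole proteins the pairs share between 48.2% and 48.6% of aligned residues. Apart from genes that overlap a member on the genome, no other annotated gene matched the coding sequence of a slingshot, of a kinase in the set or of Cfl2 over 100 nt or more at 90% identity. The overlapping match is Cd72, which shares 885 nt with Tesk1.

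The libraries held between 18330833 and 24259231 counts in Ensembl genes. Reads of Hs3st3a1 numbered 12 to 29 per WT library and 0 to 3 per DKO library, without overlap. Hs3st3b1 overlapped, with 56 to 112 reads per WT library and 33 to 108 per DKO library, and the labels do not give which part of it is deleted, so its reads check nothing. Kidney markers were present in every library, with proximal tubule genes summing to 4090 to 4784 CPM (counts scaled to a common library size by trimmed mean of M-values, TMM) in WT and 5356 to 6310 CPM in DKO. Podocyte genes summed to 76.5 to 87.7 CPM in WT and 90.3 to 107 CPM in DKO. Both of these sums were higher in every DKO library than in every WT library. Taken singly, so were 1 of the 4 proximal tubule genes and 2 of the 4 podocyte genes, against 8.34% of all genes tested. Thick ascending limb genes lay at 4929 to 8265 CPM in WT and, overlapping, at 3236 to 5622 CPM in DKO. Of these, 1 of 3 genes was lower in every DKO library, against 9.04% of all genes tested. Their part in the results below was not tested, and in whole tissue fewer cells of a type and less RNA per cell cannot be told apart. The labels name no batch.

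Ssh2 was higher in every DKO kidney than in every WT kidney. It encodes a broadly expressed slingshot that binds filamentous actin and dephosphorylates cofilin (ENSMUSG00000037926, chromosome 11, 77216287 to 77460220 on GRCm38, plus strand, 18 merged exons). Its reads numbered 232, 277 and 215 for WT replicates 1, 2 and 4 (12.04, 14.7 and 10.2 CPM). For DKO replicates 1 to 4 they numbered 493, 668, 523 and 921 (21.7, 35.1, 26.8 and 37.6 CPM). The lowest DKO library thus lay above the highest WT library, and the DKO libraries spread more widely than the WT ones. The WT mean was 12.3 ± 2.25 CPM (SD, n = 3) and the DKO mean 30.3 ± 7.35 CPM (SD, n = 4), which is 2.46 times as high, with a log2 fold change of 1.30 (SE 0.22). Leaving out any single library kept the log2 fold change between 1.18 and 1.44. This contrast chose the gene, so these values are a description and no test is given for them.

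Ssh1, the slingshot best studied as a cofilin phosphatase, was also higher in all DKO libraries, by less (ENSMUSG00000042121, chromosome 5, 113937094 to 113993894, minus strand). It stood at 6.44, 6.51 and 7.43 CPM in WT replicates 1, 2 and 4 and at 9.29, 10.9, 8.76 and 8.94 CPM in DKO replicates 1 to 4. The groups did not overlap, with means of 6.79 ± 0.553 CPM (SD, n = 3) and 9.48 ± 0.989 CPM (SD, n = 4) and a log2 fold change of 0.48 (SE 0.17). Ssh3, the slingshot with the weakest known binding to actin filaments, did not separate the groups (ENSMUSG00000034616, chromosome 19, 4261668 to 4269180, minus strand). Its values were 4.10, 4.76 and 3.27 CPM in WT and 4.75, 3.52, 4.51 and 4.69 CPM in DKO, so the WT range enclosed all DKO values. Its log2 fold change of 0.11 (SE 0.23) was smaller than its error and turned to -0.055 once a trend over gene length and GC content was removed and to -0.021 without WT replicate 4.

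**Figure D1:**
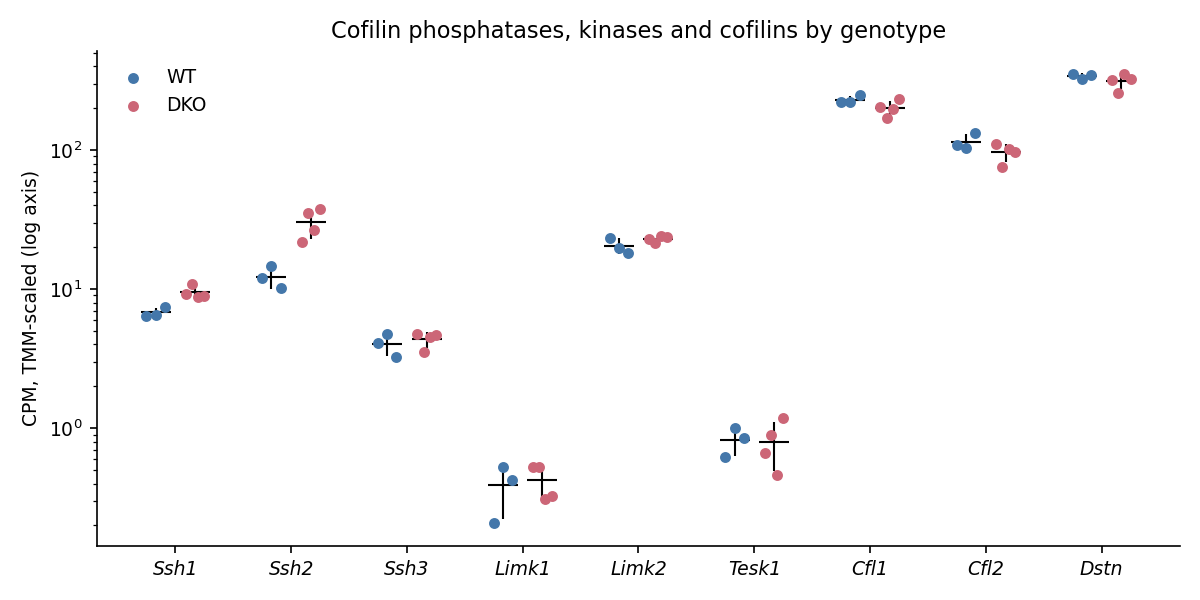
Expression of each analysed gene in each library (points, TMM-scaled CPM on a log axis), with group mean (horizontal bar) and SD (vertical bar) for 3 WT and 4 DKO kidneys. Only Ssh1 and Ssh2 have all DKO points above all WT points, with Ssh2 at 10.2 to 14.7 CPM in WT and 21.7 to 37.6 CPM in DKO.

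Of the 9 genes, 8 passed the low-count filter and were tested, and Limk1 did not pass. None of the 8 had an adjusted p under 0.05 in edgeR's quasi-likelihood test with Benjamini-Hochberg adjustment over all genes, where 0% of all genes did. At an unadjusted p under 0.05, 2 of the 8 (Ssh1 and Ssh2) were higher and 0 were lower, against 9.86% and 11.3% of all genes. The libraries of the 2 genotypes did not overlap in the higher direction for 2 of the 8, against 8.34% of all genes, and in the lower direction for 0 of the 8, against 9.04%. DESeq2 called 1 of the 8, Ssh2, and 4.37% of all genes, and gave no adjusted p for Ssh3 and Tesk1. Here and below, the 4.37% counts genes without a DESeq2 adjusted p as not called. The set was chosen on this contrast through Ssh2, so nothing is read from these shares. The median log2 fold change was 0.038 over the 8 genes and 0.036 over all genes tested.

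Gene length moved with genotype in these libraries, and Ssh2 is a long gene. Its merged exons add up to 18519 nt, in the longest decile of the tested genes, and those of Ssh1 to 8892 nt, in the next decile. Of the 1537 genes in the longest decile, 82.2% had a positive log2 fold change and in 20.8% every DKO library lay above every WT library. The median deviation of that decile from the WT mean (log2 CPM) was 0.033, 0.0051 and -0.038 in WT replicates 1, 2 and 4 and 0.087, 0.41, 0.36 and 0.34 in DKO replicates 1 to 4. The deviations of Ssh2 itself were 0.83, 1.52, 1.13 and 1.62 in DKO replicates 1 to 4. Among the DKO libraries, replicate 1 was lowest on both measures, but replicate 2 was highest for the decile and replicate 4 for Ssh2. Ssh2 had a larger fold change than 99.0% of the genes in its decile, and Ssh1 a larger one than 79.9% of those in its own. With the length and GC trend taken out of each library, the log2 fold change was 0.91 (SE 0.18) for Ssh2 and 0.22 (SE 0.17) for Ssh1, so the value for Ssh1 fell to near its error. Ssh2 was chosen by this contrast, so its high place in its decile and its value without the trend are a description only.

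**Figure D2:**
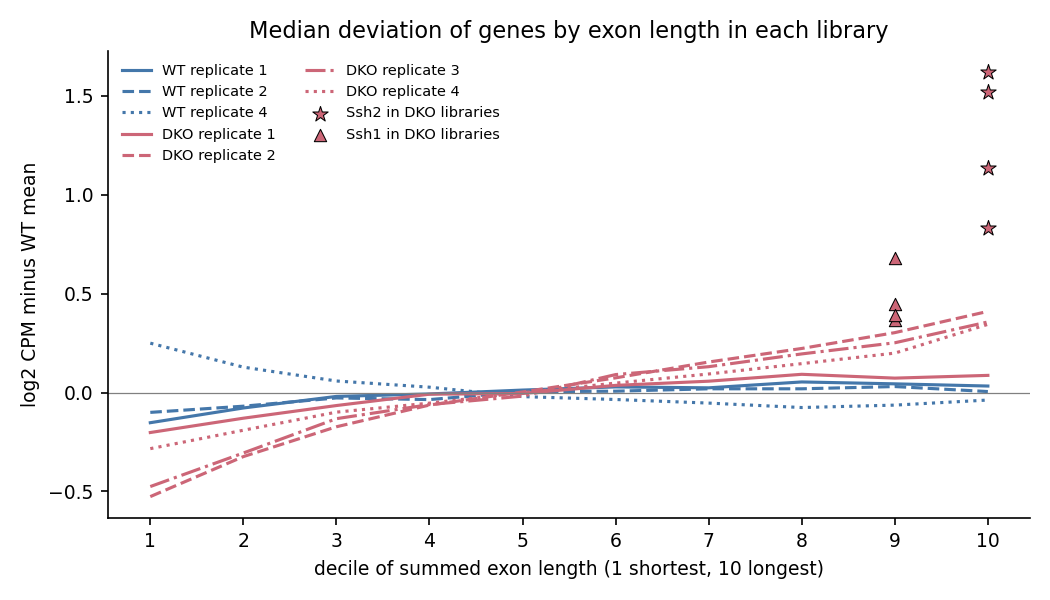
Median deviation of log2 CPM from the WT mean (vertical axis) over genes grouped by deciles of summed exon length (horizontal axis), 1 line per library, with Ssh2 (stars) and Ssh1 (triangles) of the DKO libraries at their own decile. The DKO lines rise with length to between 0.087 and 0.41, and the stars lie above them at 0.83 to 1.62. Ssh2 was chosen by this contrast.

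Among the kinases, Limk2 was by far the most abundant and its groups overlapped. LIM kinase 2 (ENSMUSG00000020451, chromosome 11, 3344256 to 3409189, minus strand) is the widely expressed LIM kinase and is activated by ROCK. It stood at 23.4, 19.9 and 18.3 CPM in WT replicates 1, 2 and 4 and at 22.8, 21.5, 23.9 and 23.7 CPM in DKO replicates 1 to 4. DKO replicates 3 and 4 lay just above the highest WT value, and the other DKO values lay within the WT range. The log2 fold change was 0.16 (SE 0.15, edgeR adjusted p 0.535), and -0.0100 with the length and GC trend removed.

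Limk1, the LIM kinase most studied in neurons, was scarce (ENSMUSG00000029674, chromosome 5, 134656039 to 134688598, minus strand). Its reads numbered 4, 10 and 9 for the WT libraries and 12, 10, 6 and 8 for the DKO libraries, or 0.388 ± 0.164 CPM (SD, n = 3) and 0.422 ± 0.121 CPM (SD, n = 4). It could be fitted under 4 alternatives, with log2 fold changes from -0.19 (SE 0.54) without WT replicate 1 to 0.38 (SE 0.62) without WT replicate 2, each smaller than its error. Tesk1, a related kinase that phosphorylates the same serine (ENSMUSG00000028458, chromosome 4, 43441939 to 43448064, plus strand), had 12, 19 and 18 reads in the WT libraries and 15, 17, 9 and 29 in the DKO libraries. Its log2 fold change of -0.039 (SE 0.42, edgeR adjusted p 0.967) changed sign under several alternatives. Of its exon bases 32.1% overlap those of Cd72, a B cell surface protein on the opposite strand, which received 788 reads in all against 119 for Tesk1. The library kit does not mark strand, so reads in the overlap cannot be assigned to either gene.

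The cofilins were abundant, and none separated the genotypes. Cfl1, the non-muscle cofilin (ENSMUSG00000056201, chromosome 19, 5490455 to 5495201, plus strand), stood at 222, 220 and 247 CPM in WT replicates 1, 2 and 4 and at 203, 170, 199 and 233 CPM in DKO replicates 1 to 4. Only DKO replicate 4 lay within the WT range, and the others lay below it. Its log2 fold change was -0.19 (SE 0.16, edgeR adjusted p 0.493). Processed pseudogenes copy this gene, and Gm6180 matches its coding sequence at 98.8% over 498 nt. All 4 copies together received 606 reads, or 1.95% of the reads of Cfl1. Of the exon bases of Cfl1, 16.5% overlap those of Snx32 on the opposite strand, which received 1329 reads in all against 31101 for Cfl1. Reads in this overlap cannot be assigned to either gene.

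Cfl2, the cofilin of muscle that is also made in other tissues (ENSMUSG00000062929, chromosome 12, 54858809 to 54862877, minus strand), stood at 108, 103 and 133 CPM in WT and at 110, 76.1, 102 and 96.1 CPM in DKO. DKO replicate 2 was lowest and DKO replicate 1 lay inside the WT range. The log2 fold change was -0.26 (SE 0.17, edgeR adjusted p 0.392), and -0.092 with the length and GC trend removed. Skeletal muscle markers summed to 3.43 to 5.13 CPM in WT and 4.24 to 63.6 CPM in DKO, and their part in the Cfl2 level was not tested. Dstn, destrin or actin depolymerizing factor (ENSMUSG00000015932, chromosome 2, 143915320 to 143943324, plus strand), stood at 353, 326 and 347 CPM in WT and at 321, 256, 349 and 322 CPM in DKO. Its log2 fold change of -0.13 (SE 0.16, edgeR adjusted p 0.656) turned to 0.055 with the length and GC trend removed. The processed pseudogene Gm7495 matches the coding sequence of Dstn at 91.4% over 431 nt and is not among the counted genes. DKO replicate 2 had the lowest value of all 7 libraries for each of the 3 cofilin genes.

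**Figure D3:**
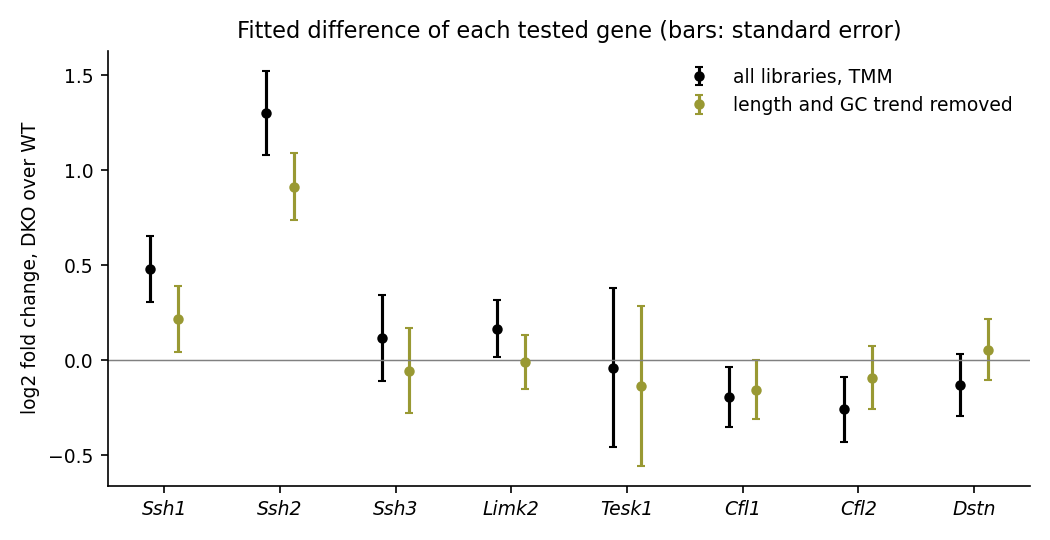
Log2 fold change of DKO over WT for the 8 tested genes (points) with its standard error (bars), from all libraries (black) and with the trend over exon length and GC content removed (olive). Ssh2 goes from 1.30 to 0.91 and Ssh1 from 0.48 to 0.22, and Ssh3, Limk2 and Dstn change sign with values near 0.

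The level order of the genes was not used to choose them and could be tested within libraries. Pairs with Ssh2 are the exception, because its DKO values, which chose the set, enter them. Levels were compared as CPM per kilobase of merged exons. Dstn led at a median of 170 CPM per kb over the 7 libraries (134 to 185), followed by Cfl1 at 77.4 (59.8 to 87.0) and Cfl2 at 31.6 (23.3 to 40.9). Limk2 followed at 3.75 CPM per kb (2.99 to 3.92). The slingshots lay close together, with Ssh2 at 1.17 (0.549 to 2.03), Ssh1 at 0.986 (0.724 to 1.23) and Ssh3 at 0.742 (0.537 to 0.784). Tesk1 at 0.192 CPM per kb (0.104 to 0.267) and Limk1 at 0.0595 (0.0290 to 0.0739) were lowest. Neighbours in this order did not overlap across libraries, except for the slingshots among themselves.

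Of 9 pairs of related genes, 7 differed in level per length at an adjusted p under 0.05 in an exact two-sided sign-flip permutation test over the 7 libraries. In 6 of these, all among the cofilins and among the kinases, every library showed the same order, which gave the smallest p the test allows (0.0156, 0.0234 after Benjamini-Hochberg adjustment over the 9 pairs). Dstn exceeded Cfl1 2.27-fold (mean log2 ratio of Cfl1 over Dstn -1.18 ± 0.12, SD, n = 7) and Cfl2 5.37-fold (Cfl2 over Dstn -2.42 ± 0.14). Cfl1 exceeded Cfl2 2.37-fold (1.24 ± 0.15). Limk2 exceeded Limk1 66.3-fold (-6.05 ± 0.61 for Limk1 over Limk2) and Tesk1 20.4-fold (4.35 ± 0.54), and Tesk1 exceeded Limk1 3.24-fold (-1.70 ± 0.54 for Limk1 over Tesk1). For the ratios with Limk1 the size rests on 4 to 12 Limk1 reads per library. Those with Tesk1 rest on 9 to 29 Tesk1 reads, and 32.1% of its exon bases overlap those of Cd72. With the longest transcript as the length, Tesk1 exceeded Limk1 only 1.77-fold, still in every library. Their ranges then overlapped over the libraries, with Tesk1 from 0.117 and Limk1 up to 0.152 CPM per kb.

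The order among the slingshots depended on the length used. Ssh1 exceeded Ssh3 in 6 of 7 libraries (log2 ratio 0.42 ± 0.38, exact adjusted p 0.0402). This call was lost in 6 of the 7 runs that left out 1 library (exact adjusted p 0.0703 to 0.0804). Those 6 runs kept WT replicate 2, the only library with Ssh1 lower, and their mean log2 ratios were 0.31 to 0.47. With 6 libraries the smallest exact p before adjustment is 0.03125. It needs the same order in every library, so these runs could not reach it. The ratio turned to -0.22 (exact adjusted p 0.141) with the longest transcript as the length. No difference was detected over all libraries between Ssh1 and Ssh2 (-0.24 ± 0.54, exact adjusted p 0.266) or between Ssh2 and Ssh3 (0.66 ± 0.71, exact adjusted p 0.0879). The latter pair was called without WT replicate 1, where Ssh2 was higher in 6 of 6 libraries (exact adjusted p 0.0402). The merged exons of Ssh2 are 18519 nt and its longest transcript 9178 nt, and its median level rises from 1.17 to 2.36 CPM per kb with the latter, which put Ssh2 first in all libraries against both of the other slingshots (exact adjusted p 0.0176 for each pair). With merged exons, the log2 ratio of Ssh1 over Ssh2 was 0.22 in the WT libraries and -0.59 in the DKO libraries, and that of Ssh2 over Ssh3 was -0.0016 and 1.16. These values by genotype have no test. Every pair with Ssh2 contains the contrast that chose the set, so nothing is read from the tests of those pairs above.

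**Figure D4:**
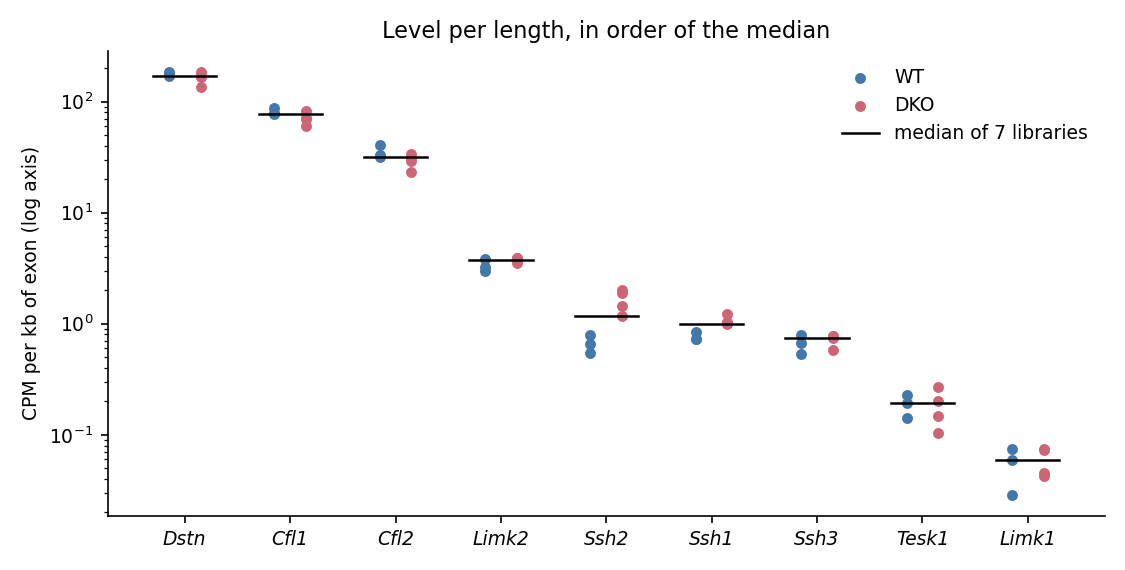
Level per length (CPM per kb of merged exons, log axis) of the 9 genes in each WT and DKO library (points), ordered by the median of the 7 libraries (black bar). The cofilins lie between 23.3 and 185, Limk2 between 2.99 and 3.92, the slingshots between 0.537 and 2.03, and Tesk1 and Limk1 below 0.27.

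Within the slingshot family, Ssh2 made up a larger part in DKO kidneys. Of the summed slingshot level per length it took 31.7%, 34.3% and 28.6% in WT replicates 1, 2 and 4 and 39.1%, 51.2%, 45.6% and 53.3% in DKO replicates 1 to 4, and with the longest transcript as the length 38.6% to 43.7% in WT and 49.8% to 63.8% in DKO. The shares of the cofilins were steady, with Dstn at 60.7% ± 1.89 in WT (SD, n = 3) and 62.0% ± 1.75 in DKO (SD, n = 4), Cfl1 at 27.4% ± 0.892 and 26.9% ± 1.99, and Cfl2 at 11.9% ± 1.13 and 11.2% ± 0.844. The summed cofilin level exceeded the summed slingshot level 121- to 161-fold in WT and 58.7- to 91.0-fold in DKO. These shares and ratios contain the Ssh2 contrast that chose the set and are given without a test.

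The other genes of the pathway did not pass the adjusted threshold in edgeR in any of 4 lists. Of 12 activators of LIM kinases and other cofilin kinases, 10 had positive and 2 negative log2 fold changes (8195 and 7199 of all 15394 genes tested). The median of the list was 0.33, and 0.16 with the length and GC trend removed, against 0.036 and -0.0090 over all genes. At an unadjusted p under 0.05, 3 were higher and 0 lower (9.86% and 11.3% of all genes), and DESeq2 called 0 (4.37%). It gave no adjusted p for Cdc42bpb and Cdc42bpg, so these could not be called. The groups did not overlap for 2 in the higher and 1 in the lower direction (8.34% and 9.04%). The most abundant were the small GTPases Cdc42, with a WT mean of 641 ± 34.0 CPM (SD, n = 3) and a DKO mean of 527 ± 42.5 CPM (SD, n = 4), and Rhoa, with 387 ± 60.5 CPM and 291 ± 50.4 CPM in the same order. Cdc42 was the gene of this list whose DKO libraries all lay below the WT ones, and Cdc42bpb and Tesk2, named after their values were seen, were those whose DKO libraries all lay above. Cdc42bpb, a kinase downstream of Cdc42, averaged 4.19 ± 1.15 CPM and 6.80 ± 0.640 CPM. Tesk2, the closest relative of Tesk1, averaged 12.2 ± 3.14 CPM and 17.9 ± 2.70 CPM.

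Of 12 regulators of slingshots, namely calcineurin subunits, protein kinase D isoforms and 14-3-3 proteins, 8 had positive and 4 negative log2 fold changes (8195 and 7199 of all 15394 genes tested). The median of the list was 0.13, and 0.037 with the trend removed. At an unadjusted p under 0.05, 1 was higher and 2 were lower, against 9.86% and 11.3% of all genes, and DESeq2 called 0, against 4.37%. The same numbers did not overlap, against 8.34% and 9.04%, so these counts are near the background. DESeq2 gave no adjusted p for Prkd2. Calcineurin activates slingshot, whereas 14-3-3 proteins hold it inactive. The most abundant were the 14-3-3 proteins Ywhae, at 719 ± 97.9 CPM for WT against 637 ± 52.7 CPM for DKO, and Ywhab, at 534 ± 72.5 CPM and 391 ± 54.0 CPM. The groups did not overlap for Ywhab and, named after their values were seen, for Prkd3 (19.9 ± 2.46 CPM for WT against 15.7 ± 0.415 CPM for DKO) and the calcineurin catalytic subunit Ppp3ca (35.4 ± 4.34 CPM for WT against 47.7 ± 8.68 CPM for DKO). Of these 3, Ppp3ca was the one higher in DKO.

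Of 12 cofactors that work with cofilin on filaments, 7 had positive and 5 negative log2 fold changes (8195 and 7199 of all 15394 genes tested). The median of the list was 0.16, and -0.0036 with the trend removed. At an unadjusted p under 0.05, 2 were higher (9.86% of all genes) and 4 lower (11.3%). The groups did not overlap for 1 in the higher (8.34%) and 2 in the lower direction (9.04%). The most abundant were Twf1, a twinfilin that caps and disassembles filaments, at 799 ± 196 CPM for WT against 728 ± 204 CPM for DKO, and Wdr1, which helps cofilin to disassemble filaments, at 158 ± 22.02 CPM and 188 ± 24.9 CPM. DESeq2 called 2 of the 12 genes (4.37% of all genes), both coronins named after their values were seen. It gave no adjusted p for Cap2, Coro2a, Coro2b and Gmfg, so these could not be called. The share over all genes also includes genes that could not be called. Coro1b, a broadly expressed coronin that recruits slingshot, was at 102 ± 28.1 CPM for WT against 60.5 ± 6.79 CPM for DKO, with a log2 fold change of -0.75 (SE 0.19) and an adjusted p of 0.163 in edgeR and 0.0236 in DESeq2. Coro1a, a coronin of blood cells, was at 16.4 ± 8.12 CPM and 7.23 ± 2.14 CPM, with -1.18 (SE 0.34) and an adjusted p of 0.163 in edgeR and 0.0288 in DESeq2. The groups did not overlap for Coro1b, for Gmfg (7.32 ± 2.31 CPM for WT against 3.74 ± 0.870 CPM for DKO), another gene of blood cells, and for Coro2a (0.819 ± 0.253 CPM for WT against 1.59 ± 0.344 CPM for DKO), both named after their values were seen. Markers of leukocytes summed to 13.5 to 29.2 CPM in WT and 8.20 to 24.7 CPM in DKO, with 1 of 5 genes lower in every DKO library (9.04% of all genes). Their part in the values of Coro1a and Gmfg was not tested.

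All 6 genes of actin and its monomer-binding proteins had negative log2 fold changes (7199 of all 15394 genes tested). The median of the list was -0.32, and -0.31 with the trend removed. At an unadjusted p under 0.05, 0 were higher and 2 lower (9.86% and 11.3% of all genes), and the groups did not overlap for 4 genes, each lower in DKO (9.04%). The most abundant were Actb, at 13408 ± 3819 CPM for WT against 11936 ± 3357 CPM for DKO, and the profilin Pfn2, at 211 ± 23.7 CPM and 171 ± 15.3 CPM. The other 3 genes without overlap, named after their values were seen, were Pfn1 (109 ± 5.16 CPM for WT against 86.3 ± 11.9 CPM for DKO) and the thymosins Tmsb4x (158 ± 92.3 CPM for WT against 73.9 ± 16.3 CPM for DKO) and Tmsb10 (16.0 ± 2.02 CPM for WT against 8.62 ± 2.79 CPM for DKO). Thymosins hold actin monomers in reserve and profilins feed them to growing filaments. DESeq2 called both thymosins, 2 of the 6 genes against 4.37% of all (adjusted p 0.0288 for Tmsb4x and 0.0299 for Tmsb10), where the edgeR adjusted p was 0.163 for each. WT replicate 4 stood at 264 CPM for Tmsb4x, against 113 and 96.3 CPM in WT replicates 1 and 2. Without it the edgeR log2 fold change of Tmsb4x went from -1.09 to -0.50, and DESeq2 called neither the thymosins nor Coro1a and Coro1b (adjusted p 0.277 to 0.364). These 4 DESeq2 calls were also lost without DKO replicate 2 (0.169 to 0.177) and without DKO replicate 3 (0.116 to 0.126), and that of Tmsb10 without WT replicate 1 (0.0846). Tmsb4x is also abundant in leukocytes, whose markers are given above.

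**Figure D5:**
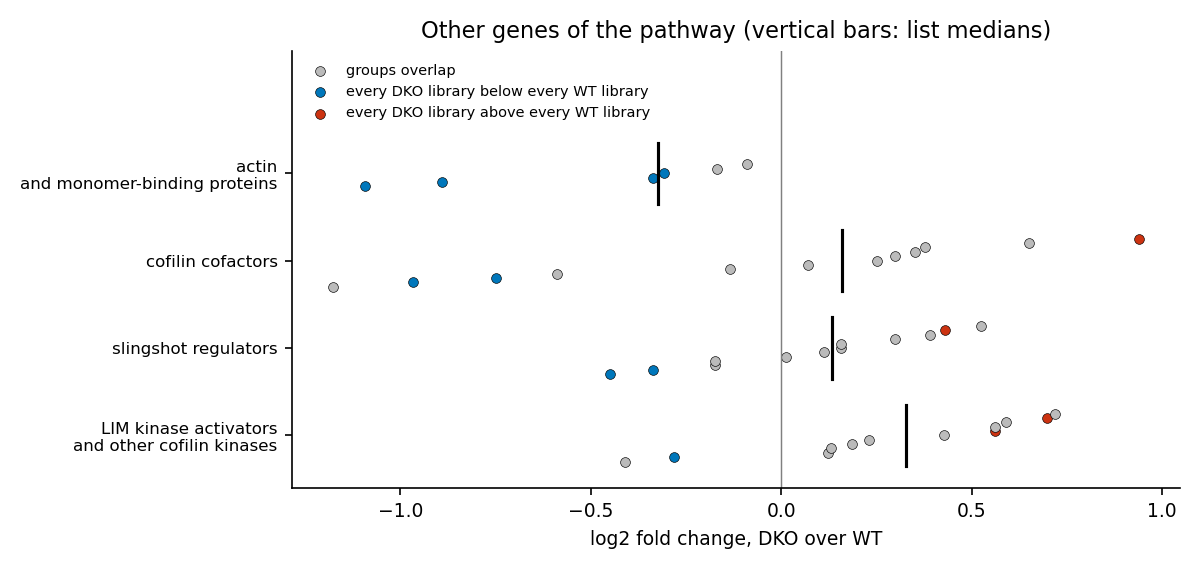
Log2 fold change of DKO over WT for the other genes of the pathway in 4 lists (points, with colour showing whether the libraries of the 2 genotypes overlap) and the median of each list (vertical bar). All 6 points of the actin list lie below 0, with a median of -0.32, and 10 of 12 points of the kinase activator list lie above 0, with a median of 0.33. Of all 15394 genes tested, 8195 had positive and 7199 negative values.

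The genes whose levels followed Ssh2 most closely over the 7 libraries were Apc, Rabgap1, Dennd2b, Lrrc3 and Aff1, with Pearson's r of log2 CPM between 0.978 and 0.989 among 10140 genes of at least 5 CPM on average. All of them were higher in DKO on average, for example Rabgap1, whose means were 22.5 CPM for WT and 29.0 CPM for DKO, and Apc, with 4.86 CPM and 7.74 CPM. Ssh2 was chosen for its difference between genotypes, so genes picked for following it over all libraries share that direction by selection. Nothing is read from their direction. The exons of Apc (16116 nt), Rabgap1 (12615 nt) and Aff1 (9458 nt) put them in the longest decile of the tested genes, which starts at 9419 nt. Those of Dennd2b add up to 5738 nt and those of Lrrc3 to 4296 nt. Whether length had a part in these correlations was not tested. With the mean of each genotype subtracted, the closest were Gamt, Mtf2, Lratd1, Gpd2 and Mdn1 (r from 0.969 to 0.984). The 2 lists share no gene. These correlations rest on 7 libraries that share sequencing depth and the length trend and are descriptions.

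Ssh2 lies on the same chromosome as both targeted genes, 12.7 Mb from Hs3st3a1 and 13.3 Mb from Hs3st3b1, and Limk2 lies on it too, 73.8 Mb from Ssh2. Without the targeted pair, 427 tested genes lie within 15 Mb of it, Ssh2 among them, a window set after the position of Ssh2 was known. Every DKO library was above every WT library for 8.43% of these 427 genes and below for 9.84%. On the rest of chromosome 11 these shares were 8.55% and 12.3% of 830 genes. Whether position on the chromosome had a part in the Ssh2 level was not tested.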

How the data were processed

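RNA from whole kidneys of 7 male mice was sequenced from libraries that do not mark strand, per the labels' protocols. The authors deposited raw read counts per Ensembl gene, a filtered subset of them, and a TMM-scaled signal table used here only for gene symbols. Reads were aligned with STAR 2.5.2a, per the submitters' processing notes, which also name DESeq2, edgeR and limma and the builds GRCm38, mm10 and GRCh38 without a role. The sources used here do not give the counter, its annotation or its strand setting. Of 48733 rows, 24 that are not Ensembl genes (at most 0.000697% of a library) were left out.

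DKO was compared with WT by edgeR's quasi-likelihood test (edgeR 4.0.16, R 4.3.3, TMM, robust, filterByExpr with a minimum count of 10 and total of 15), two-sided, on the 15394 genes kept, with Benjamini-Hochberg adjustment and a threshold of 0.05. Standard errors were derived from the F statistic. DESeq2 1.42.0 and limma-voom (limma 3.58.1) were alternatives. Fitted values were checked on simulated data. The length and GC trend was a spline fit (4 degrees of freedom each) of log2 CPM (prior count 2) in each library on merged exon length and on the GC content of the longest transcript, entered as offsets, with values for 15369 of the genes tested. Level ratios between members were tested by flipping signs over libraries (128 patterns). The plan held 12 pairs, of which 9 could be formed without Pdxp.

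Lengths, positions and coding bases were read from GENCODE M21 (GRCm38), where 48349 of the Ensembl rows had an entry, and copies were searched with blastn 2.17.0. Residues were aligned with Biopython 1.88 (BLOSUM62). Genes named were all members, the 2 most abundant of each pathway list, any pathway gene past the threshold, the targeted genes and the 5 closest to Ssh2, on each of 2 measures. Pathway genes outside this rule were named after their values were seen, for a DESeq2 call, a missing DESeq2 adjusted p or groups that did not overlap. Leaving out libraries in DESeq2 was added after seeing the data. The members and lists were chosen with earlier results of these data known. Replicates are separate animals by their numbers in the labels, and chi-square statistics per gene between libraries of a group were 40.5 to 98.9, so none was a repeat of another.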

Additional observations from a re-analysis of the deposited data

How the results depend on the processing

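Over 13 alternatives of the fit, edgeR called 0 members in each except with no low-count filter, where it called 1 of the members and 66 genes in all, and DESeq2 called 1 of the members and 672 genes. The member called in both was Ssh2, which was chosen for its small p in this contrast, so the calls are no support for it. Leaving out 1 library gave 0 to 7 called genes and 0 members, with 1 gene without WT replicate 2 and 7 without DKO replicate 1. The log2 fold change of Ssh2 was between 0.91 (length and GC trend removed) and 1.44 in all alternatives, and that of Ssh1 between 0.22 and 0.55. Signs changed for small values only. With the length and GC trend removed Ssh3 was -0.055, Limk2 -0.0100 and Dstn 0.055. Leaving out 1 library, Ssh3 ranged from -0.021 to 0.24 and Tesk1 from -0.30 to 0.16. With the replicate number as a block, Tesk1 was 0.14, Ssh2 1.33 and 0 members and 0 genes were called. DKO replicate 3 has no WT partner and adds nothing to that contrast. Deviations of same-numbered libraries correlated at -0.13, 0.16 and 0.14 for replicates 1, 2 and 4. WT replicate 2 correlated best with its own number, and WT replicates 1 and 4 did not. Whether same-numbered libraries share more than a number cannot be told from these values. Leaving out 1 library, 6 or 7 of the 9 level pairs were called, and 8 with the longest transcript as the length. Calls of pairs with Ssh2 contain the contrast that chose the set, and nothing is read from them. The pair of Ssh1 over Ssh3 turned to -0.22 with the longest transcript. In WT libraries alone Ssh1 over Ssh2 turned to 0.22 and Ssh2 over Ssh3 to -0.0016. Depth limited Limk1 and Tesk1, at 4 to 29 reads a library.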
